A study of Mus musculus with 8 samples.

Results

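The genes described here encode the nuclear subunits of the mitochondrial respiratory chain and the ATP synthase. They were chosen by gene symbol: Nduf subunit genes for complex I, Sdha to Sdhd for complex II, Uqcr genes and Cyc1 for complex III, Cox4 to Cox8 genes other than Cox6a2 for complex IV, and Atp5 genes for complex V. The array annotation gave 105 probe sets for 81 such genes, of 28853 probe sets and 19938 annotated genes in all. Complex I contributed 35 genes, complex II 4, complex III 9, complex IV 16 and complex V 17. After the filter on low signal 80 of them were tested among 13356 genes. The gene left out was Cox7b2, a testis form of a complex IV subunit, whose log2 signal ran from 2.47 to 3.09 over all arrays. Ndufb4 and Cox7c lay only on probe sets shared with other genes, so these subunits were not analysed here.

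Total RNA of sorted mouse bone marrow cells had been hybridised to 8 Affymetrix arrays. Every animal carried the same allele, a heterozygous Zeb2-GFP fusion reporter, in which the protein encoded by 1 copy of Zeb2 is tagged with green fluorescent protein, and no untreated or wild-type group was measured. The groups were 3 arrays of Zeb2hi CDPs, 3 of Zeb2low CDPs and 2 of pre-CD8 DCs. CDPs are the common progenitors of dendritic cells, split here by reporter level, and pre-CD8 DCs are marrow precursors committed to the CD8+ conventional dendritic cell lineage, also called cDC1. The labels give neither age nor strain nor the number of animals pooled. Nothing in them says that arrays of a group came from separate animals, so the p-values describe only how these arrays vary, which may be technical. The design asks how expression changes along the path of dendritic cell development.

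The respiratory chain moves electrons from NADH (through complex I) and succinate (through complex II) to coenzyme Q, then through complex III and cytochrome c to oxygen at complex IV. Complexes I, III and IV pump protons across the inner mitochondrial membrane, and the ATP synthase, complex V, lets them back to make ATP. Each complex apart from complex II also holds subunits encoded by mitochondrial DNA, so the nuclear genes described here supply only a part of it. Haematopoietic progenitors that leave quiescence are known to raise oxidative phosphorylation, and dendritic cells shift their metabolism as they mature and are activated.

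Zeb2 itself followed the labels. Its log2 signals were 9.45, 9.05 and 9.32 in Zeb2hi CDPs, 7.49, 7.69 and 7.86 in Zeb2low CDPs, and 6.93 and 6.53 in pre-CD8 DCs. Of 10 tested cDC1 genes, 5 were higher in Zeb2low than in Zeb2hi CDPs and 7 in pre-CD8 DCs than in Zeb2hi CDPs. Over all genes tested, 4.50% and 6.51% were higher. Xcr1, a chemokine receptor that defines mature cDC1, stayed between 3.49 and 4.09 in all CDP arrays and read 7.57 and 5.03 in the pre-CD8 arrays. Genes of mature neutrophils were present in all arrays: their 10 linear signals summed to between 10829 and 20762 in Zeb2hi CDPs, 23273 and 47425 in Zeb2low CDPs, and 29155 and 54639 in pre-CD8 DCs. No marker is listed at 0. The arrays also differed in the upper part of their signal range, with a 90th percentile of log2 signal from 8.47 to 8.53 in Zeb2hi CDPs, 8.21 to 8.34 in Zeb2low CDPs, and 8.47 and 8.33 in the pre-CD8 arrays, and the median subunit gene lay above it in each array, at 9.31 to 10.0.

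Zeb2low CDPs had lower signals of many of these genes than Zeb2hi CDPs, and the difference was uneven between subunits. Of 80 tested genes 20 fell and 0 rose in limma's moderated test at an adjusted p under 0.05, against 10.3% lower and 4.50% higher among all genes tested. The members' median log2 difference was -0.30, against 0.03 over all genes, and 64 of 80 differences were negative. The signals of 34 members were lower in every Zeb2low array than in every Zeb2hi array and those of 6 were higher in every one, where all genes gave 21.5% and 20.2%. In bulk RNA, a lower share of cells that express a gene and less of its RNA per cell cannot be told apart.

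The size of the difference depended on how the arrays were scaled. When the arrays were quantile normalized again, the members' median went to -0.024, against 0.018 over all genes. Of the members 15 were lower and 2 higher, against 7.19% lower over all genes. That fit called 1625 of 13356 genes, 960 of them lower. The medians of complexes I and IV turned to 0.09 and 0.05. When array medians were set equal instead, the median of all genes moved to -0.14 and that of the members to -0.47. Of the members 29 were lower and 0 higher, against 16.7% lower over all genes. Among the lower ones 5 were in complex III and 4 in complex IV. None of the 20 genes that fell changed sign under either scaling. Over all genes, the share of calls that were higher was 30.4%, 40.9% after the second quantile normalization and 14.2% with medians set equal.

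**Figure D1:**
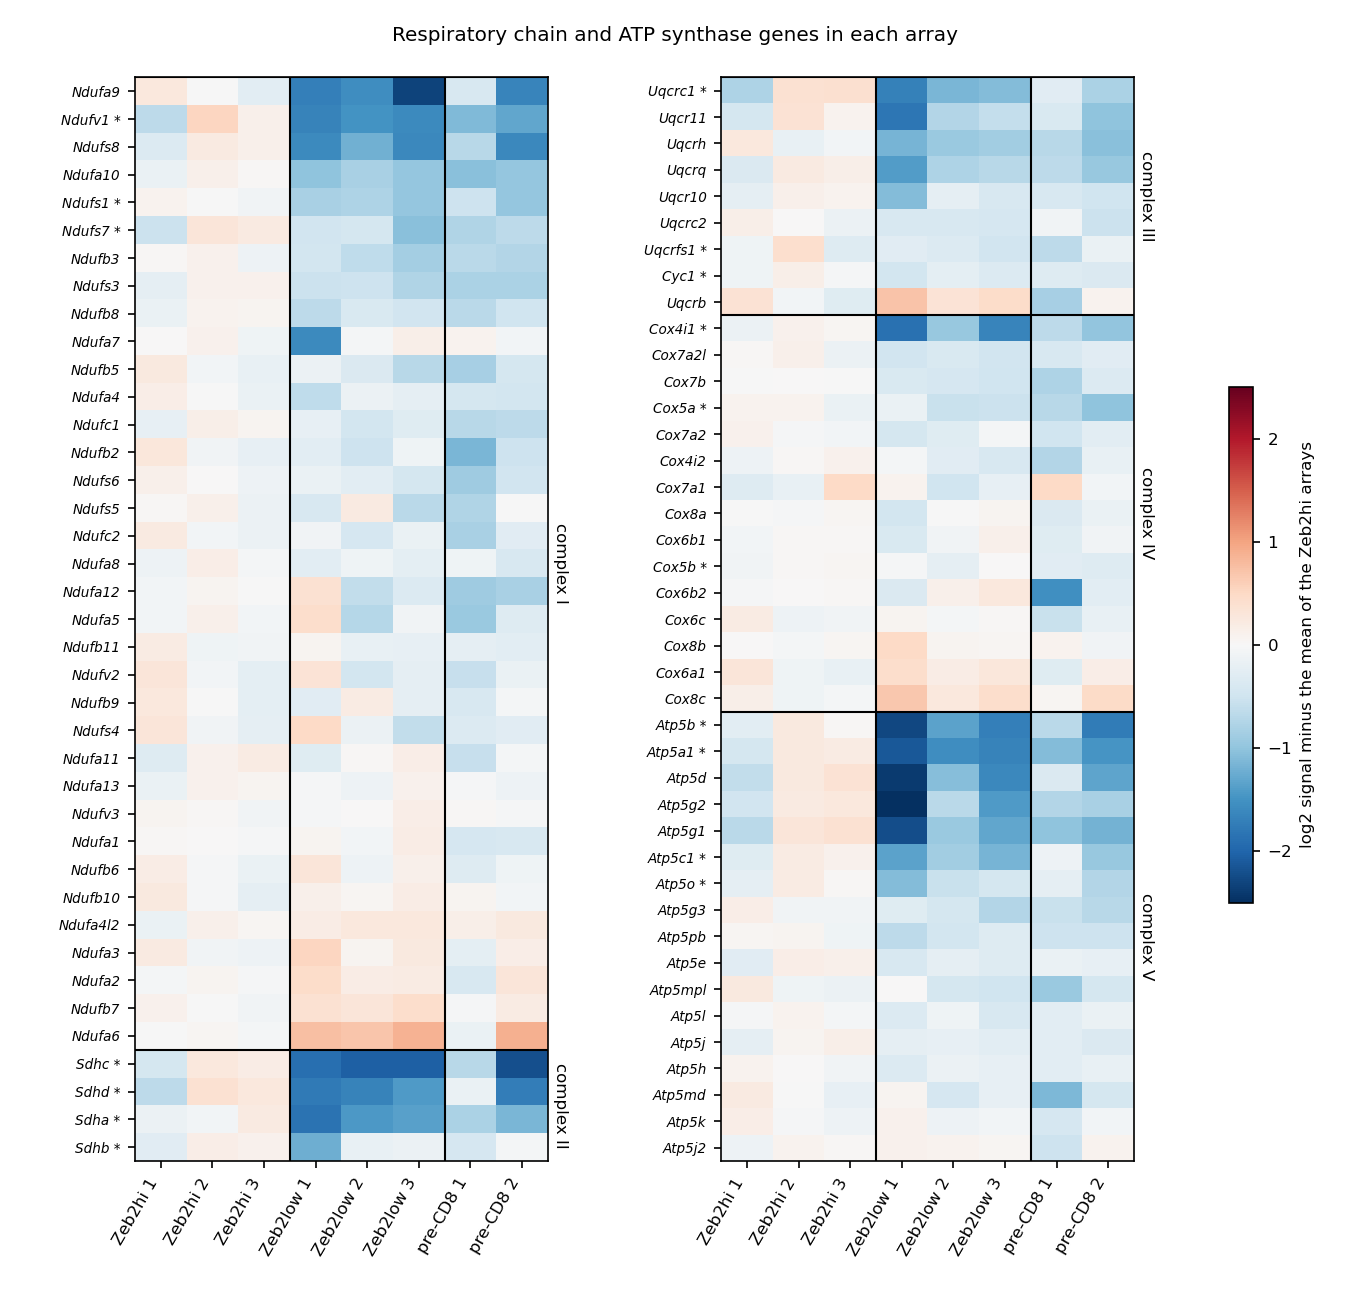
Log2 signal of the 80 tested genes in each of the 8 arrays (columns), minus the mean of the 3 Zeb2hi arrays, by complex and ordered within each by the Zeb2low minus Zeb2hi difference. Blue is lower and red higher, values past the ends of the scale take the end colour, and an asterisk marks one of 17 selected core subunits. The upper rows of complexes I, II, III and V are blue in every Zeb2low array. Most of complex IV is pale, as is Sdhb of complex II in Zeb2low arrays 2 and 3.

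Complex II, succinate dehydrogenase, also works in the tricarboxylic acid cycle, and 3 of its 4 genes fell, with a median of -1.58. Sdha encodes the flavoprotein that oxidises succinate, and its log2 signals were 9.12, 9.21 and 9.49 in Zeb2hi CDPs against 7.43, 7.84 and 7.92 in Zeb2low CDPs. The groups did not overlap, and the difference was -1.54 ± 0.19 (SE), or 2.91-fold lower (adjusted p = 0.0028). Sdhc, a membrane anchor with the coenzyme Q site, read 9.78, 10.47 and 10.40 against 8.34, 8.17 and 8.17, and its difference of -1.99 ± 0.35 (3.97-fold lower, adjusted p = 0.0096) was the largest of any member. Sdhd, the other anchor, read 8.06, 9.09 and 8.98 against 6.94, 7.03 and 7.30 (-1.62 ± 0.40, adjusted p = 0.029). Zeb2hi array 1 was the lowest of its group for all 4 genes of complex II. Sdhb, the iron-sulfur subunit, had a different pattern: array 1 of the Zeb2low group read 7.93, but arrays 2 and 3, at 8.95 and 9.0, lay inside the Zeb2hi range of 8.86 to 9.31. Its difference of -0.51 ± 0.29 did not pass the test (adjusted p = 0.25, 95% interval -1.17 to 0.15).

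In complex V 6 of 17 genes fell and the median was -0.48. The catalytic F1 head is built of alpha and beta subunits around a gamma shaft. Atp5a1 (alpha) read 10.33, 11.02 and 10.97 in Zeb2hi CDPs and 8.66, 9.23 and 9.11 in Zeb2low CDPs, a difference of -1.77 ± 0.24 (3.42-fold lower, adjusted p = 0.0035). Atp5b (beta) read 10.45, 10.96 and 10.75 against 8.44, 9.37 and 9.01 (-1.78 ± 0.32, 3.43-fold lower, adjusted p = 0.010). For Atp5c1 (gamma) the values were 10.32, 10.84 and 10.73 against 9.29, 9.75 and 9.47 (-1.12 ± 0.24, adjusted p = 0.020). The 3 head genes were lower in all 3 Zeb2low arrays than in any Zeb2hi array, with array 1 lowest in both groups. Atp5d, the delta subunit of the shaft, differed by -1.69 ± 0.40 (adjusted p = 0.026). Atp5o, which encodes the stalk protein OSCP, read 10.62, 11.06 and 10.87 against 9.76, 10.30 and 10.41, which did not overlap but did not pass the test (-0.69 ± 0.22, adjusted p = 0.068). It passed with a block for the replicate number over the 6 CDP arrays (adjusted p = 0.011).

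The ring of c subunits that turns in the membrane is made from 3 genes with the same mature protein. Atp5g1 read 10.09, 11.08 and 11.15 against 8.57, 9.86 and 9.47 (-1.48 ± 0.37, adjusted p = 0.030). Atp5g2 read 10.52, 11.21 and 11.25 against 8.23, 10.32 and 9.57 (-1.62 ± 0.46, adjusted p = 0.047). Both were far lower in Zeb2low array 1 than in arrays 2 and 3, and without that array they no longer passed. Atp5g3 read 10.89, 10.64 and 10.65 against 10.42, 10.29 and 9.99 (-0.49 ± 0.16, adjusted p = 0.069, or 0.029 with that block). The 6 genes of complex V that fell were Atp5a1, Atp5b, Atp5c1, Atp5d, Atp5g1 and Atp5g2. The other 11, mostly small membrane or stalk subunits, had differences from -0.69 to 0.08. Among them Atp5k, the e subunit that holds dimers of the enzyme together, read 11.32, 11.12 and 11.04 against 11.27, 11.04 and 11.09, with a difference of -0.03 (95% interval -0.38 to 0.32).

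In complex I 7 of 35 genes fell and the median was -0.21. NADH is oxidised at the tip of its peripheral arm by Ndufv1, whose log2 signals were 7.96, 9.15 and 8.75 in Zeb2hi CDPs and 6.96, 7.12 and 7.03 in Zeb2low CDPs. Its spread lay almost wholly in the Zeb2hi group, where array 1 was low, and the difference was -1.59 ± 0.27 (3.01-fold lower, adjusted p = 0.0084). Ndufs1, the large iron-sulfur subunit beside it, read 7.69, 7.59 and 7.52 against 6.78, 6.83 and 6.63 (-0.85 ± 0.16, adjusted p = 0.012). Ndufs8, which carries electrons towards coenzyme Q, read 9.08, 9.64 and 9.55 against 7.84, 8.22 and 7.81 (-1.47 ± 0.26, adjusted p = 0.0097). Ndufa9, a subunit at the junction of the arms, had the largest difference of the complex, from 8.78, 8.51 and 8.25 to 6.81, 6.96 and 6.20 (-1.86 ± 0.33, 3.62-fold lower, adjusted p = 0.0097). Ndufa10, an accessory subunit of the membrane arm, read 9.52, 9.80 and 9.71 against 8.67, 8.87 and 8.70 (-0.93 ± 0.14, adjusted p = 0.0055).

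The other complex I genes that fell were Ndufb3 (-0.65) and Ndufs3 (-0.59), the latter a subunit of the quinone-binding module. Ndufs7, which holds the last iron-sulfur cluster before coenzyme Q, read 7.94, 8.77 and 8.70 against 7.99, 8.02 and 7.43, so that Zeb2hi array 1 lay within the Zeb2low range, and it did not pass (-0.66 ± 0.25, adjusted p = 0.11). Without Zeb2hi array 1 it passed. At the other end, Ndufa6, an accessory subunit of the peripheral arm, read 8.72, 8.77 and 8.66 in Zeb2hi CDPs and 9.46, 9.42 and 9.58 in Zeb2low CDPs. This was the largest positive difference of any member, 0.77 ± 0.24, with no overlap between groups, and it did not pass the test (adjusted p = 0.066). Ndufa4, a subunit named for complex I that is now placed in complex IV, read 11.80, 11.62 and 11.46 against 11.00, 11.48 and 11.40 (-0.33 ± 0.17). The signals of its paralogue Ndufa4l2, which is induced at low oxygen, stayed near the filter, from 4.14 to 4.58 over all arrays.

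Complex III had 3 of 9 genes lower and a median of -0.57. Uqcrh, the hinge protein that holds cytochrome c1, read 11.54, 11.09 and 11.20 against 10.11, 10.34 and 10.40 (-0.99 ± 0.18, adjusted p = 0.0099). Uqcrq, a small subunit that binds cytochrome b, read 8.85, 9.44 and 9.36 against 7.82, 8.45 and 8.52 (-0.95 ± 0.24, adjusted p = 0.030). Uqcrc1, a core protein on the matrix side, had its lowest Zeb2hi value in array 1, at 7.37 against 8.52 and 8.54 in the others, and read 6.45, 7.01 and 7.05 in Zeb2low CDPs (-1.30 ± 0.33, adjusted p = 0.031). The genes that carry electrons within the complex had smaller differences, which did not pass. Cyc1, cytochrome c1, gave -0.35 ± 0.14 (adjusted p = 0.12), and Uqcrfs1, the Rieske iron-sulfur protein, -0.37 ± 0.22 (adjusted p = 0.26). Uqcrb was the only member of complex III with a positive difference, 0.50 ± 0.26 (adjusted p = 0.22).

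In complex IV, cytochrome c oxidase, 1 of 15 tested genes fell and the median was -0.14. That share of 6.67% was below the 10.3% of all genes that were lower. The gene that fell was Cox4i1, the general form of subunit 4, which read 11.16, 11.42 and 11.36 in Zeb2hi CDPs and 9.45, 10.36 and 9.67 in Zeb2low CDPs. The difference was -1.48 ± 0.24 (adjusted p = 0.0066), and the Zeb2low arrays spread over a wider range than the Zeb2hi arrays. Its lung-enriched paralogue Cox4i2 gave low signals, from 4.98 to 5.82 over all arrays (-0.24 ± 0.18). Cox5a, one of the 2 subunits 5, read 10.69, 10.68 and 10.43 against 10.44, 10.04 and 10.06 (-0.42 ± 0.17, adjusted p = 0.13). Cox5b, the zinc-binding one, read 11.18, 11.29 and 11.32 against 11.24, 11.03 and 11.28, so that the groups overlapped (-0.08 ± 0.13, 95% interval -0.38 to 0.23). Cox6b1, which helps to join 2 copies of the enzyme into a dimer, gave -0.11 (95% interval -0.48 to 0.26) and its testis form Cox6b2 0.00 ± 0.30.

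The subunit 7a genes were spread from -0.45 to -0.21. Cox7a2l, which helps to join complexes III and IV into supercomplexes, gave -0.45 ± 0.13 with no overlap between groups (adjusted p = 0.057, or 0.035 with the replicate block over the CDP arrays). Cox7a2 gave -0.26 ± 0.15, and the muscle form Cox7a1, with signals of 5.61 to 6.61, -0.21 ± 0.26. Of the subunit 8 genes, Cox8a gave -0.14 ± 0.17. The tissue-restricted forms Cox8b and Cox8c, at 4.02 to 4.94, lay near the filter, with differences of 0.21 ± 0.16 and 0.46 ± 0.17. Cox8c lay below the filter level in every Zeb2hi array and passed only through arrays of the other groups. In each complex IV isoform set with a low form, the low form did not pass the test in either direction.

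**Figure D2:**
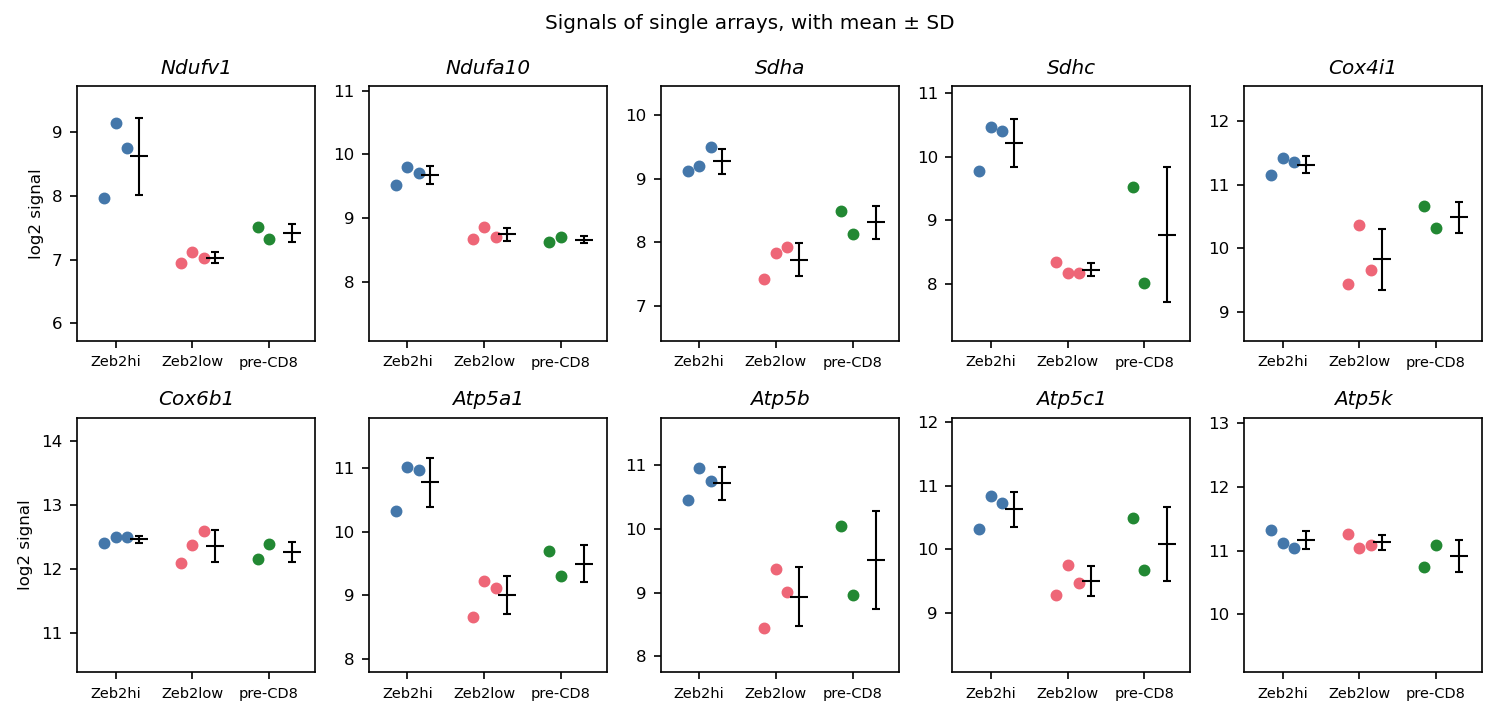
Log2 signal of 10 genes in single arrays (coloured points) with the group mean and SD (black), for Zeb2hi CDPs (3 arrays), Zeb2low CDPs (3) and pre-CD8 DCs (2). Every panel spans the same number of log2 units. Ndufv1, Ndufa10, Sdha, Sdhc, Cox4i1, Atp5a1, Atp5b and Atp5c1 are lower in each Zeb2low array than in any Zeb2hi array, while Cox6b1 and Atp5k overlap, and the 2 pre-CD8 arrays lie far apart for Sdhc, Atp5b and Atp5c1.

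A list of 17 selected subunits, called core here, was also counted apart from the rest. It held Ndufs1, Ndufs7, Ndufv1, all of complex II, Uqcrfs1, Cyc1, Uqcrc1, Cox4i1, Cox5a, Cox5b, Atp5a1, Atp5b, Atp5c1 and Atp5o. Of these, 10 fell and all 17 differences were negative, with a median of -1.12. Of the other 63 members 10 fell and 47 differences were negative, with a median of -0.23. Over all genes 10.3% were lower. The mean of the core genes, relative to the Zeb2hi mean, was -0.29, 0.21 and 0.08 in the Zeb2hi arrays and -1.23, -0.93 and -1.03 in the Zeb2low arrays. For the other members it was 0.00, 0.04 and -0.03 against -0.33, -0.27 and -0.30, a narrower spread within each group. After the second quantile normalization the core median was -0.75 with 10 lower, and the median of the other members turned positive, at 0.05. The list is a selection, not a set of catalytic subunits: Cox4i1, Cox5a and Cox5b surround a catalytic core encoded by mitochondrial DNA. It also left out Ndufs3, Ndufs8 and Ndufv2, conserved core subunits of complex I with differences of -0.59, -1.47 and -0.11, and Uqcrc2, the partner of Uqcrc1 (-0.41). No test of the difference between the 2 lists was made.

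**Figure D3:**
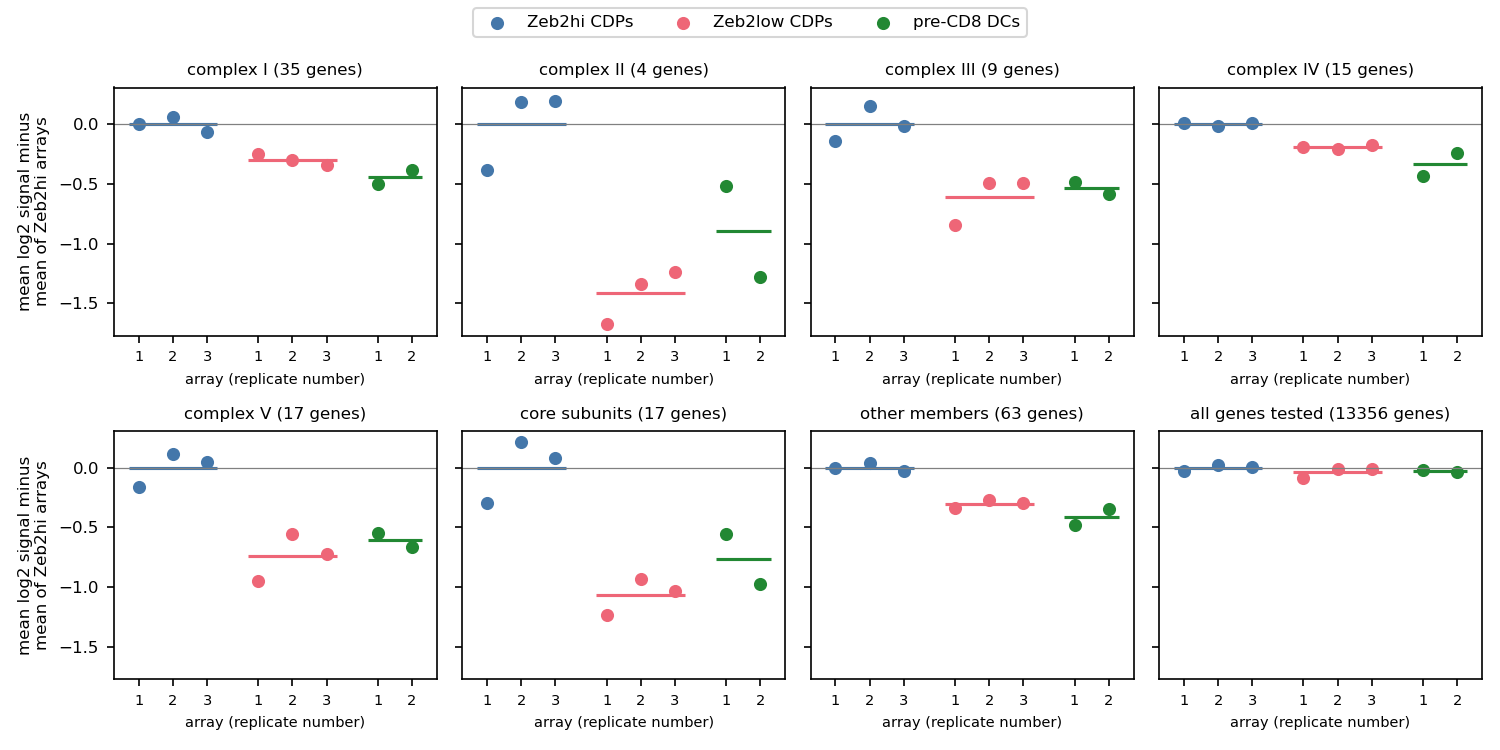
Mean log2 signal of each complex, of the core subunits, of the other members and of all genes tested, relative to the mean of the Zeb2hi arrays. Points are single arrays, numbered as labelled, and lines are group means. Complex II and the core subunits lie lowest in the Zeb2low arrays, and pre-CD8 array 1 lies above array 2 in both, while all genes tested stay near 0.

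Which genes fell depended on single arrays. Of the 20, 8 passed in each of the fits that left out 1 array and in every other alternative run: Ndufa9, Ndufa10, Ndufv1, Sdha, Sdhc, Uqcrh, Cox4i1 and Atp5a1. Without Zeb2hi array 2 the count of lower genes was 8, without Zeb2hi array 3 it was 11, and without Zeb2low array 3 it was 12, and the shares of all genes that were lower in these fits were 2.68%, 3.04% and 5.62%. Over all genes, CDP arrays of the same replicate number deviated together from their group means. A block for the replicate number, fitted to all 8 arrays, left 18 members lower, against 8.46% of all genes. Ndufs3 and Sdhd were lost (adjusted p = 0.063 and 0.062). With that block over the 6 CDP arrays alone 29 were lower, against 19.0% of all genes, and 3 were higher, namely Ndufa6, Uqcrb and Cox8c. Of these, Cox8c passed the filter only through arrays outside the Zeb2hi group, so its higher call was favoured by the filter. Over all genes that fit called 4070 of 13356, 2534 of them lower. The 9 lower members this block added were Atp5g3, Atp5o, Atp5pb, Cox7a2l, Cox7b, Ndufb5, Ndufb8, Uqcr10 and Uqcr11. Of 10 neutrophil genes 3 were higher in Zeb2low CDPs, against 4.50% of all genes. With the mean log2 signal of the neutrophil genes as a covariate, an alternative chosen after the data were seen, 19 members were lower, 17 of them among the 20, and 0 higher, against 6.15% lower over all genes. The medians of complexes I and IV were then -0.055 and -0.012.

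Genes with several probe sets allowed a check on the choice of 1 per gene. There were 16 such genes with 40 probe sets, and within each gene all differences between Zeb2low and Zeb2hi CDPs had the same sign. They differed in size for Ndufb11, at -0.11 for the probe set used and -1.49 for the other, and for Uqcr11, at -1.05 and -2.0. The 3 probe sets of Atp5g2 gave -1.37 to -1.90, and the 6 of Atp5l, a membrane subunit, -0.30 to -0.24.

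The promoters of the subunit genes carry known motifs of the factors NRF1, GABP (an ETS factor) and YY1, which are textbook regulators of respiratory genes. RefSeq windows of 300 bases (GRCm38.p6, 250 before to 50 after the start) were found for 66 of the 81 genes. The letters GCGCA, then any base, then GCGC, close to an NRF1 site, were found on either strand in the windows of 16 of 66 members (24.2%), against 5.19% of 27025 genes. CCGGAAG, close to an ETS site, was found in 17 (25.8%) against 9.93%, and AAGATGGCG, close to a YY1 site, in 7 (10.6%) against 1.64%. TATAAA was found in 8 (12.1%) against 15.67%. No matches of different motifs overlapped. The windows of the members were also richer in G and C, with a median of 57.3% against 52.7% of all genes. Of 15 matched members that fell in Zeb2low CDPs 5 held the NRF1-like letters, and of the other 51 it was 11. For the ETS-like letters the counts were 4 of 15 and 13 of 51. These matches describe the letters of the windows and say nothing of binding.

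The following stretches are the 120 bases before the annotated start, 5′ to 3′ on the gene's own strand, which is the minus strand for all 7. Matches to the NRF1-like or ETS-like letters, on either strand, are in capitals. Atp5c1 had 2 windows, of which 1 is shown. Where several windows of a gene qualified, that with the most matches was taken. The first 4 genes fell in Zeb2low CDPs and the last 3 did not pass the test, and they are shown because the same letters stand before genes of both kinds. Sdha lies at chr13:74350241-74350360, Sdhd at chr9:50603850-50603969, Atp5c1 at chr2:10080433-10080552, Atp5g2 at chr15:102671048-102671167, Cox6a1 at chr5:115348959-115349078, Atp5k at chr5:108434400-108434519 and Cox6b1 at chr7:30626115-30626234.
Sdha: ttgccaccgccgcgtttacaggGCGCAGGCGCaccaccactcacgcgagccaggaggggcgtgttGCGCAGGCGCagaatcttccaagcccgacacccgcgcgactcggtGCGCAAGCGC
Sdhd: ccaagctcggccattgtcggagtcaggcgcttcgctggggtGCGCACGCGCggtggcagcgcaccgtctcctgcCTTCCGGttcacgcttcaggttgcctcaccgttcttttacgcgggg
Atp5c1: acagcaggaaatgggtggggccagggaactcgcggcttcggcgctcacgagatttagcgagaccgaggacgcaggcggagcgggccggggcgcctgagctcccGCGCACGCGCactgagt
Atp5g2: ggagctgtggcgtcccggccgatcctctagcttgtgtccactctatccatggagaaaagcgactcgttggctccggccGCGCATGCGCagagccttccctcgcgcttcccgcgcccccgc
Cox6a1: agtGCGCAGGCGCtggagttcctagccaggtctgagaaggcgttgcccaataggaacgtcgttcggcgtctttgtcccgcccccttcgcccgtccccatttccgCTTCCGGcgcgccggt
Atp5k: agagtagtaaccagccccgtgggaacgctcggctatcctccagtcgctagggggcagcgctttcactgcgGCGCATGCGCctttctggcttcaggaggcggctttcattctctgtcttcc
Cox6b1: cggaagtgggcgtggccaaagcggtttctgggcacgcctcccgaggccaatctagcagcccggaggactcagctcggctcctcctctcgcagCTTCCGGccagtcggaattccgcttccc
Sdha held 3 NRF1-like matches in this stretch, and Sdhd and Cox6a1 each held 1 of either kind. Cox6a1, a complex IV subunit near the outer face of the membrane, read 12.16, 11.75 and 11.67 in Zeb2hi CDPs and 12.30, 12.04 and 12.13 in Zeb2low CDPs (0.30 ± 0.19, adjusted p = 0.30). Sdhd, with the same kinds of letters, fell, as given above.

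Pre-CD8 DCs also had lower signals of many of these genes than Zeb2hi CDPs. Of 80 members 18 fell and 0 rose, against 11.1% lower and 6.51% higher over all genes tested, and 72 differences were negative. The median was -0.45, against -0.02 over all genes. In 49 members both pre-CD8 arrays lay below every Zeb2hi array and in 1, Ndufa4l2, above, where all genes gave 27.1% and 21.4%. By complex, 10 of 35 genes of complex I fell (median -0.42), 2 of 4 of complex II (-0.96), 1 of 9 of complex III (-0.45), 2 of 15 of complex IV (-0.34) and 3 of 17 of complex V (-0.54). These medians stayed negative under both scalings. After the second quantile normalization 9 members were lower, against 8.46% of all genes, and with medians set equal 23 were, against 13.1%. This comparison shares its Zeb2hi arrays with the one above, so the 2 sets of differences are not independent.

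The complex I genes that fell lie in its NADH, quinone and membrane modules. The largest differences were those of Ndufv1, at 7.52 and 7.32 in the pre-CD8 arrays (-1.20 ± 0.30, adjusted p = 0.026), Ndufs8, at 8.74 and 7.82 (-1.15 ± 0.29, adjusted p = 0.028), and Ndufa10, at 8.63 and 8.70 (-1.01 ± 0.15, adjusted p = 0.0039). Ndufa10 agreed closely between the 2 arrays, and it was the only member that passed in each of the fits with 1 array left out. The others were Ndufs1 (-0.74), Ndufs3 (-0.79), Ndufs6 (-0.68), Ndufb2 (-0.83), Ndufb3 (-0.70), Ndufb8 (-0.59) and Ndufc1 (-0.68). Ndufa9 read 8.11 and 6.87 in the pre-CD8 arrays, one of them close to the Zeb2hi range, and did not pass (-1.03 ± 0.37, adjusted p = 0.088).

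In complex II, Sdha read 8.49 and 8.14 (-0.96 ± 0.21, adjusted p = 0.016) and Sdhc 9.52 and 8.02 (-1.44 ± 0.39, adjusted p = 0.036). Sdhd read 8.54 in array 1, inside the Zeb2hi range, and 6.98 in array 2, and did not pass (-0.95 ± 0.45, adjusted p = 0.18). Uqcrh of complex III read 10.59 and 10.22 (-0.87 ± 0.20, adjusted p = 0.019). In complex IV the genes that fell were Cox5a, at 9.91 and 9.59 (-0.85 ± 0.19, adjusted p = 0.018), and Cox7b, at 10.82 and 11.25 (-0.56 ± 0.16, adjusted p = 0.049). Cox4i1, at 10.66 and 10.32, lay below every Zeb2hi array and did not pass (-0.82 ± 0.26, adjusted p = 0.063). In complex V, Atp5a1 read 9.70 and 9.30 (-1.28 ± 0.27, adjusted p = 0.013), Atp5b 10.05 and 8.96 (-1.21 ± 0.36, adjusted p = 0.048) and Atp5g3 10.16 and 10.04 (-0.63 ± 0.18, adjusted p = 0.041). Without Zeb2hi array 2, or without Zeb2hi array 3, 3 members were lower, against 5.31% and 5.79% of all genes, so that the share of lower members was below that of all genes in both fits. Without pre-CD8 array 1 and without array 2 the counts were 11 and 8, against 6.03% and 8.09% of all genes. Of 10 neutrophil genes 4 were higher in pre-CD8 DCs, against 6.51% of all genes. With the mean of the neutrophil genes as a covariate 6 members were lower, 5 of them among the 18, against 4.01% of all genes.

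**Figure D4:**
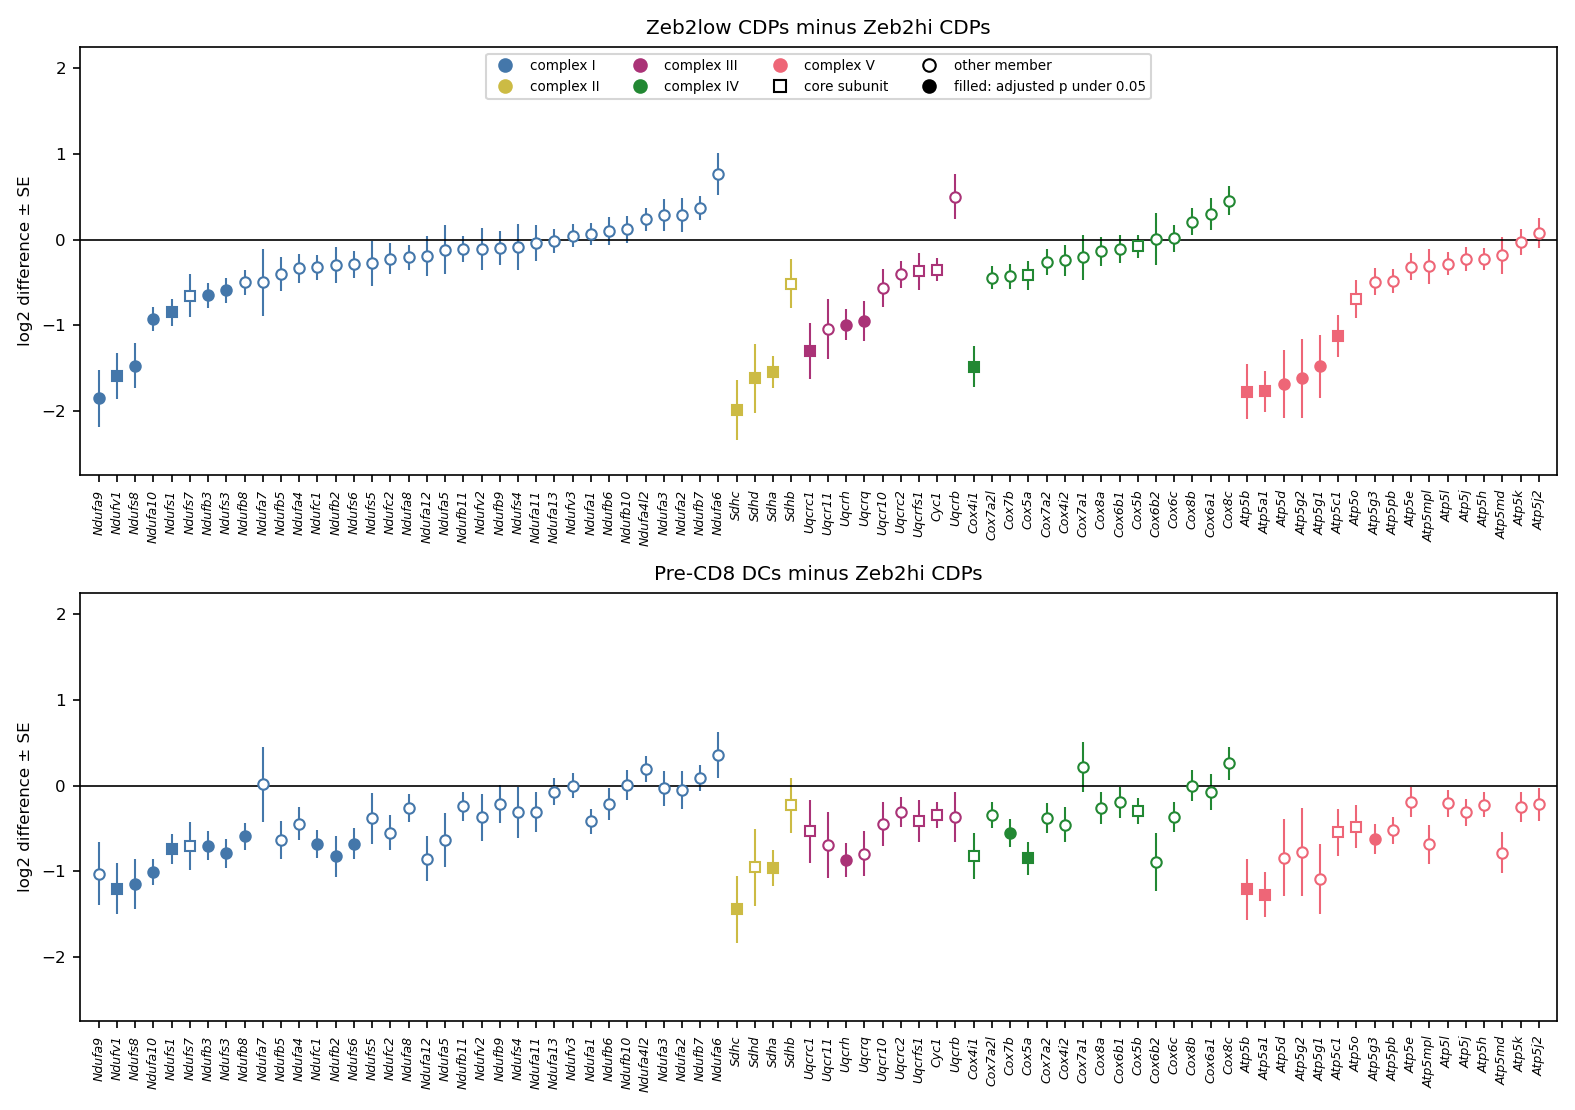
Log2 difference ± SE of each of the 80 tested genes for Zeb2low minus Zeb2hi CDPs (top) and pre-CD8 DCs minus Zeb2hi CDPs (bottom), in the same order of genes. Colours give the complex, squares the core subunits, and filled symbols an adjusted p under 0.05. The top panel has a steep tail of strongly negative genes in complexes I, II, III and V and many genes near 0, and the bottom panel has fewer strongly negative genes and fewer near 0.

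Between pre-CD8 DCs and Zeb2low CDPs, limma called 0 of 80 members lower and 0 higher, where 0.217% of all genes were lower and 0.337% higher, 0.554% in all. At an unadjusted p under 0.05, 6 were lower and 2 higher, against 930 and 832 of 13356 genes. The members' median was -0.09 (0.0015 with array medians set equal), against -0.03 over all genes. The lowest of the 6 were Cox6b2 (-0.90 ± 0.34, adjusted p = 0.31) and Uqcrb (-0.87 ± 0.29, adjusted p = 0.26), the others being Ndufa1, Ndufa12, Cox5a and Atp5md. The 2 higher ones were Sdha (0.58 ± 0.21, adjusted p = 0.29) and Cox4i1 (0.66 ± 0.26, adjusted p = 0.34). Over the 80 members the 95% intervals reached from -1.67 to 2.01, so differences of a size seen against Zeb2hi CDPs could not be told from 0 in this comparison for many genes. The pre-CD8 arrays lay below every Zeb2low array for 14 members and above for 5, where all genes gave 15.4% and 12.4%.

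Core and other members lay on opposite sides of 0 in this comparison, without any call. The core median was 0.39, with 13 of 17 differences positive, and that of the other members -0.12, with 47 of 63 negative. With array 1 of both groups left out the core median was 0.060, with 8 of 17 differences negative, and the complex II median went from 0.56 to -0.011. The pre-CD8 arrays differed from each other in the same genes. Array 1 was higher than array 2 in 14 of 17 core genes, by a median of 0.36, and the core mean was -0.56 in array 1 and -0.97 in array 2, the latter within the Zeb2low range of -1.23 to -0.93. The gap was largest for Sdhd (1.56) and Sdhc, and for complex II as a whole the array means were -0.52 and -1.28. Array 1 also had the higher neutrophil sum, 54639 against 29155, and the higher Xcr1 signal, and the part of either in the gap was not tested.

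Other genes of the pathway were counted from lists of assembly factors, electron carriers and regulators. Over all genes, 10.3% were lower in Zeb2low and 11.1% in pre-CD8 cells than in Zeb2hi CDPs. With the neutrophil covariate these shares were 6.15% and 4.01%. Of 43 tested assembly factors, which insert cofactors and join subunits, 13 were lower in Zeb2low than in Zeb2hi CDPs and 0 higher (median -0.39), with Atpaf2, a chaperone of the ATP synthase head, at -1.51 ± 0.31 (adjusted p = 0.016), Coa7, a complex IV assembly factor, at -1.50 ± 0.24 (adjusted p = 0.0072) and Tmem126b, of complex I assembly, at -1.18 ± 0.24 (adjusted p = 0.017). In pre-CD8 DCs 9 of 43 were lower than in Zeb2hi CDPs, led by Coa7 (-1.58), Ndufaf2 (-1.51) and Atpaf1 (-1.31). With the neutrophil covariate the counts were 6 and 4. Of 17 genes of electron carriers and coenzyme Q synthesis 6 were lower in Zeb2low and 5 in pre-CD8 cells, and 1 and 1 with the neutrophil covariate. Etfb, the electron transfer flavoprotein that brings electrons from fatty acid oxidation, gave -2.64 ± 0.45 (adjusted p = 0.0086) and -1.85 ± 0.50 (adjusted p = 0.037), and Coq2 and Coq5, enzymes of coenzyme Q synthesis, gave -0.89 and -0.78 in Zeb2low CDPs. Cytochrome c itself, Cycs, gave 0.11 ± 0.14 in Zeb2low CDPs (adjusted p = 0.62).

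The list of mitochondrial DNA expression and its nuclear regulators had 20 tested genes. In Zeb2low CDPs 2 were lower, against 10.3% of all genes, and in pre-CD8 DCs 5, against 11.1%. With the neutrophil covariate both counts were 0, against 6.15% and 4.01% of all genes. Tfam, which packs mitochondrial DNA and starts its transcription, gave -1.28 ± 0.31 (adjusted p = 0.028) in Zeb2low and -1.55 ± 0.35 (adjusted p = 0.018) in pre-CD8 cells, and Twnk, the helicase, -0.66 ± 0.16 (adjusted p = 0.025) in Zeb2low CDPs. The factors whose motifs were searched did not pass: Nrf1 gave 0.16 ± 0.16 (adjusted p = 0.52), Gabpa -0.31 ± 0.19 (adjusted p = 0.27) and Yy1 -0.39 ± 0.14 (adjusted p = 0.092) in Zeb2low against Zeb2hi CDPs. Of 5 further family genes, 2 of which (Atp5md and Atp5mpl) are also members, Ndufab1, the acyl carrier protein of complex I, fell by 0.60 in Zeb2low CDPs (SE 0.16, adjusted p = 0.036) and also fell in pre-CD8 DCs (-0.86). Cox6a2, the muscle form that the choice of members left out, gave -1.44 ± 0.27 in pre-CD8 DCs against Zeb2hi CDPs (adjusted p = 0.0085) and -1.98 ± 0.27 against Zeb2low CDPs (adjusted p = 0.022).

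Lists of other mitochondrial genes and of glycolysis were set beside the subunits. Over all genes 10.3% were lower and 4.50% higher in Zeb2low than in Zeb2hi CDPs. For pre-CD8 DCs against Zeb2hi CDPs these shares were 11.1% and 6.51%. In Zeb2low against Zeb2hi CDPs 36 of 77 genes of the mitochondrial ribosome were lower (median -0.59), and 12 of 18 of the tricarboxylic acid cycle (median -0.89), among them Idh2, at -2.01 ± 0.23 (adjusted p = 0.0024). In glycolysis 5 of 18 were lower (median -0.57), and no gene of these 3 lists was called higher. The neutrophil covariate left 23 genes of the mitochondrial ribosome lower and 1 higher, and 8 of the tricarboxylic acid cycle lower. The fit with this covariate called 1157 of 13356 genes, 822 of them lower. After the second quantile normalization 28 and 7 genes of these 2 lists were lower, against 7.19% of all genes. With array 1 of both Zeb2low CDPs and pre-CD8 DCs left out the glycolysis median was -0.29. With the replicate block over the CDP arrays 10 glycolytic genes were lower and 3 higher, and 1 gene of the tricarboxylic acid cycle was higher. That fit called 4070 of 13356 genes, 2534 of them lower. In pre-CD8 DCs against Zeb2hi CDPs the counts were 37 of 77, 8 of 18 and 3 of 18, with 1 glycolytic gene, Aldoc, higher (1.09 ± 0.25, adjusted p = 0.019). Beside them stand 20 of 80 and 18 of 80 for the subunit genes, and these shares were not tested against each other.

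**Figure D5:**
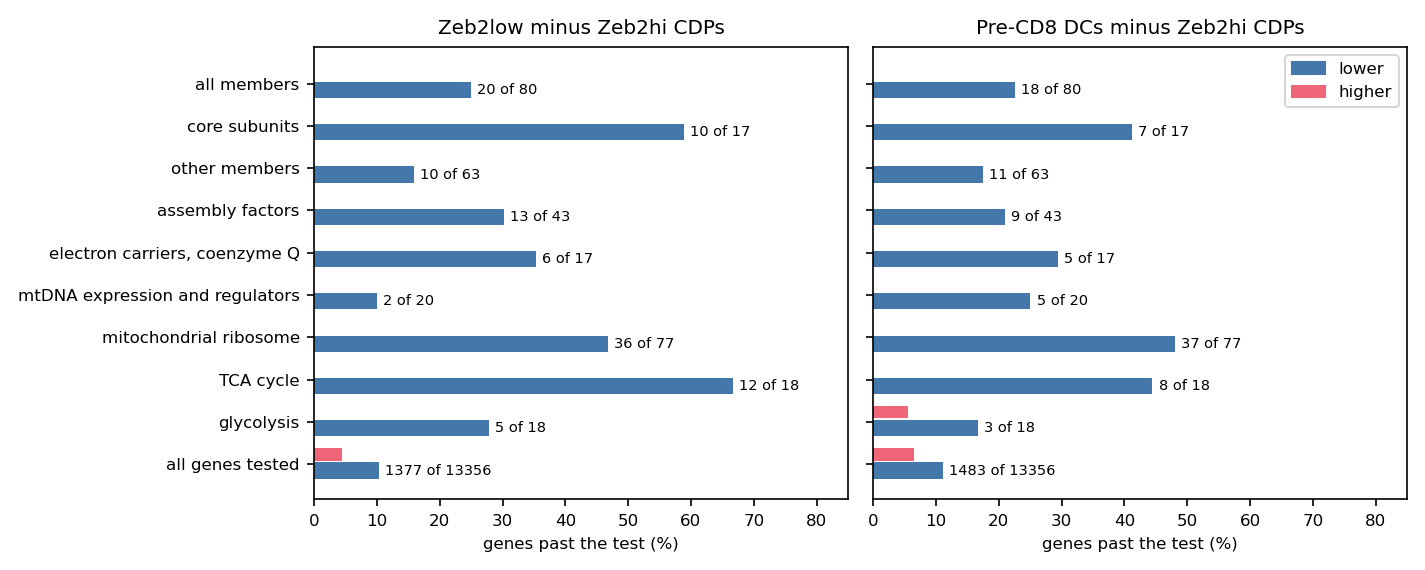
Share of tested genes past the test, lower (blue) and higher (red), in each list and over all genes, for both comparisons with Zeb2hi CDPs. Labels give the count of lower genes of those tested. Core subunits, the mitochondrial ribosome and the tricarboxylic acid (TCA) cycle have the longest blue bars in both panels, and red bars appear only for all genes tested and, in pre-CD8 DCs, for glycolysis.

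Markers of other cells differed between the same groups, in part through single genes of a list. Calls are against Zeb2hi CDPs. Over all genes 10.3% were lower and 4.50% higher in Zeb2low CDPs, and 11.1% and 6.51% in pre-CD8 DCs. Monocyte genes, 6 of them tested, summed to 3320 to 4197 in Zeb2hi CDPs, 2005 to 2292 in Zeb2low CDPs, and 1936 and 1724 in the pre-CD8 arrays, with 1 lower in Zeb2low CDPs and 3 in pre-CD8 DCs. They did not move together. In the same order of groups, the mean log2 signal was 10.54, 8.06 and 6.74 for F13a1, but 9.28, 9.66 and 9.99 for Ccr2. Erythroid genes summed to 75.4 to 97.6, 107 to 827, and 218 and 243, with none of 3 called. The higher sums came mainly from Car1, at 9.49 in Zeb2low array 3 and 7.15 and 7.33 in the pre-CD8 arrays. The other erythroid genes stayed between 2.55 and 5.09 in every array. B cell genes summed to 353 to 409, 360 to 393, and 371 and 487, with 1 lower and 2 higher of 4 against Zeb2hi CDPs in both comparisons. Genes of T, NK and innate lymphoid cells summed to 388 to 474, 342 to 861, and 604 and 571, with 2 and 1 of 5 higher. Those of basophils and mast cells summed to 224 to 304, 289 to 779, and 647 and 463, with 2 and 1 of 5 higher. Genes of dendritic cell progenitors summed to 3666 to 4644, 2629 to 3513, and 4344 and 3444, with 1 of 7 lower in Zeb2low CDPs, and 2 lower and 2 higher in pre-CD8 DCs. Zeb2 is on that list, and its reporter split the CDPs, so its fall from a mean of 9.27 to 7.68 was set by the sort. Apart from the neutrophil covariate above, the part of these cells in the subunit results was not tested.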

How the data were processed

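The submitters' processing notes name RMA and Affymetrix Expression Console for the summary of the arrays, and the authors deposited 1 linear intensity per probe set and array. Intensities were taken to log2, probe sets of exactly 1 gene were kept (21789 of 28853, with 1621 of several genes and 5443 of none), and a probe set passed where at least 2 arrays exceeded their own 40th percentile. The probe set with the highest mean stood for its gene. Differences were fitted with limma 3.58.1 in R 4.3.3 (lmFit and eBayes, two-sided) over all 13356 genes and 8 arrays in 1 fit with 5 residual degrees of freedom, and adjusted by Benjamini-Hochberg, with 0.05 as threshold. Intervals are at 95% and assume the fitted spread. The number of arrays limits the precision. No 2 arrays held identical values.

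Members and lists were chosen with earlier results of these data known. Named with values are the listed core subunits, the isoform sets, up to 3 members per complex, comparison and direction with the largest differences past the test, members that failed the filter, and up to 3 genes per pathway list. Deviations of same-numbered Zeb2hi and Zeb2low arrays from their group means correlated at 0.48, 0.41 and 0.31 over all genes, and those of other pairs at -0.42 to 0.14. Over the members the same numbers gave 0.51, 0.46 and 0.32, but Zeb2hi array 3 gave 0.35 with Zeb2low array 2. The deviations of a group sum to 0, so these correlations are not independent. The numbers may therefore pair these arrays. This reading comes from the values, since the labels state no pairing. The alternatives were other scalings, filters, probe set rules and weights, an intensity trend, replicate blocks, fits of 2 groups only, arrays left out, and a neutrophil covariate. The method was tested on simulated data: of 100 genes lowered by 1 log2 unit in Zeb2low CDPs 56 were recovered, and of 100 lowered by 2, 92. Among unchanged genes 8 were called. The simulated noise was independent between arrays, and the data themselves gave 1978 calls in this comparison. These rates therefore need not hold for the data.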

Additional observations from a re-analysis of the deposited data

How the results depend on the processing

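Limits: the Zeb2low minus Zeb2hi count of 20 lower members ranged from 8 to 21 with 1 array left out, and that of higher members from 0 to 1. For pre-CD8 DCs minus Zeb2hi CDPs the 18 lower ranged from 3 to 24 and the higher from 0 to 1, with medians of -0.48 to -0.36. For pre-CD8 DCs minus Zeb2low CDPs, 1 member (Cox6b2) was lower without pre-CD8 array 2. No member changed sign while called. After the second quantile normalization the medians were -0.024, -0.19 (pre-CD8 minus Zeb2low) and -0.26. It gave 2 higher in the first comparison, in a fit that called 1625 of 13356 genes, 960 of them lower. In the last comparison it gave 9 lower, where 8.46% of all genes were lower. With array medians set equal the medians were -0.47, 0.00149 and -0.52. Array weights gave 33 lower and 4 higher in Zeb2low CDPs, in a fit that called 4467 of 13356 genes, 2669 of them lower. The replicate block over the 6 CDP arrays gave 3 higher there, in a fit that called 4070 genes, 2534 of them lower. Cox8c, among the higher members in both fits, passed the filter only outside the Zeb2hi group. The block over all 8 arrays gave 8 lower for pre-CD8 DCs minus Zeb2hi CDPs, whose numbers did not deviate together, against 7.47% of all genes. Fitting the 2 CDP groups alone, or leaving out array 1 of both Zeb2low CDPs and pre-CD8 DCs, gave 1 higher in Zeb2low CDPs. The latter also gave 1 higher and a median of -0.36 for pre-CD8 DCs minus Zeb2hi CDPs. The neutrophil covariate gave 6 lower there. The cause of these shifts was not tested. All other counts over the 80 members stayed within 1.5 times the reported ones, while some counts by complex and by list moved further. RMA signals near the filter (Cox8b, Cox8c, Ndufa4l2, Cox4i2) bound what could be seen of those genes.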
